A study of Mus musculus with 8 samples.

Results

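Acta1, Tnnt3, Actn3, Myh1, Myh2, Myh4, Atp2a1, Pvalb, Ckm and Mb encode proteins of the skeletal muscle fibre, and they were examined in RNA-seq of whole prostates. These 10 genes were taken by their Ensembl identifiers from a table of 54532 genes. They were chosen on their measured values in these same libraries, for how unevenly they were spread between mice of a group, so their levels and fold changes are given as a description. The prostates came from 8 male NOD mice, an inbred strain that develops autoimmune disease. The 4 control mice (numbered 1, 3, 65 and 69) received PBS, and the 4 etanercept mice (17, 19, 50 and 52) received 4 mg/kg of etanercept, a TNF antagonist made from a soluble receptor. Both were given as intraperitoneal injections, 2 per week for 5 weeks, and the tissue was collected at 30 weeks of age. Each library is 1 animal, so the replicate spread is between animals. In bulk tissue, fewer cells of a type and less RNA per cell cannot be told apart.

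Skeletal muscle contracts when myosin heavy chains of the thick filament pull on thin filaments of actin, which are anchored at the Z disc. Contraction is switched on by calcium binding to the troponin complex and ends when the sarcoplasmic reticulum pump takes the calcium back. Fast fibres carry their own isoforms of most of these proteins. The prostate stroma is built of smooth muscle, which uses other actin and myosin genes, while striated muscle lies next to the gland, around the urethra.

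The upstream sequence is shown for Acta1, which was counted at high levels in every mouse, and for the neighbouring Myh1 and Myh4, whose counts came mostly from 1 mouse. It is a reference sequence, not read in these mice, and its part in their levels was not tested. The 250 bases before the RefSeq start of transcription (GRCm38.p6, the build that corresponds to mm10) run 5′ to 3′ on the gene's strand, in lower case with matches to the CArG box (the element bound by serum response factor) or the MEF2 site in capitals.
Acta1, chr8:123894776-123895025, minus strand: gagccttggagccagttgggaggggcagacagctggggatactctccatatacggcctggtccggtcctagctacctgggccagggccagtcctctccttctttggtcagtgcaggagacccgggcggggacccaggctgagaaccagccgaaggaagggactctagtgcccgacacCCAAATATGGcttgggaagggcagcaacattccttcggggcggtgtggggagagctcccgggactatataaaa
Myh1, chr11:67199852-67200101, plus strand: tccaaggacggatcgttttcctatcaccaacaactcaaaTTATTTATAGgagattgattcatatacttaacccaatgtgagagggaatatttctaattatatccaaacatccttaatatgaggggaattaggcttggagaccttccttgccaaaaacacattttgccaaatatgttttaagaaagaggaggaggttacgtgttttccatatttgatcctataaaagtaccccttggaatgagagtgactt
Myh4, chr11:67237562-67237811, plus strand: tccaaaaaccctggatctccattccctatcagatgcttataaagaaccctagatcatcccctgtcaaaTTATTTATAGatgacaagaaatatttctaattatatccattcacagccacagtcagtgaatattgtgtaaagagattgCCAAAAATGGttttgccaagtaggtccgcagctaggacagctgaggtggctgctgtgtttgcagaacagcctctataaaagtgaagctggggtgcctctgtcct
The RefSeq table held 8 of the 10 genes. Tnnt3 and Actn3 were not among them. The CArG box was matched once in Acta1 and once in Myh4, against 1.47% of all 32851 promoters in windows of the same length. The MEF2 site was matched once each in Myh1, in Myh4 and before 1 of the 2 starts of Pvalb, against 2.92% of promoters. In Myh1 and Myh4 this match overlaps a TATAAA read on the other strand. The E-box CANNTG, a common letter pattern present in 66.2% of promoters, was found in 2 copies each in Acta1 and Myh4, in 1 copy each in Atp2a1 and Ckm, in 2, 2 and 3 copies before the 3 starts of Mb, in 1 copy before 1 of the 2 starts of Pvalb, and in none in Myh1 or Myh2. The M-CAT letters CATTCC were present in Acta1, Myh1 and Myh4 and in 12.6% of promoters. All motifs were searched on both strands, and a match describes the letters only.

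Library totals ran from 13760669 to 25178942 counts and did not differ between control and etanercept beyond the spread between mice (exact permutation test of 70 assignments, two-sided, p = 0.83, where the smallest possible p was 0.0286). Values are given as counts scaled to the library total (CPM) after TMM scaling. At 3 counts a gene stood at 0.108 to 0.211 CPM, depending on the library, so a value of 0 allows a level of up to that. Where levels of different genes are set in order, FPKM (CPM per kilobase of exon) are used, whereas sums and shares of counts are not scaled to length.

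Between mice of the control group, the 10 genes together ranged from 68.96 CPM in control 1 to 2322 CPM in control 3, a ratio of 33.7. Their summed levels were 202 CPM in control 65 and 526 CPM in control 69. In the etanercept group they ranged from 702 CPM in etanercept 17 to 1322 CPM in etanercept 52, a ratio of 1.88. The sum was therefore spread widely over the control mice and narrowly over the etanercept mice, where Acta1 made up most of it, and the width in the controls rested on control 3 and control 1, since the ratio was 7.62 without control 3 and 11.5 without control 1. In control 3 the 10 genes took 0.247% of all counts (95% Wilson interval 0.2446% to 0.2498%), which covers counting error only. Control 3 held the highest level of 9 of the 10 genes, all but Acta1, whereas it held the highest level of 12.9% of the 20779 genes with at least 10 counts over all mice. In 7 of the 10 its level was at least 5 times that of the next mouse, compared with 0.602% of the 20779 genes.

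**Figure D1:**
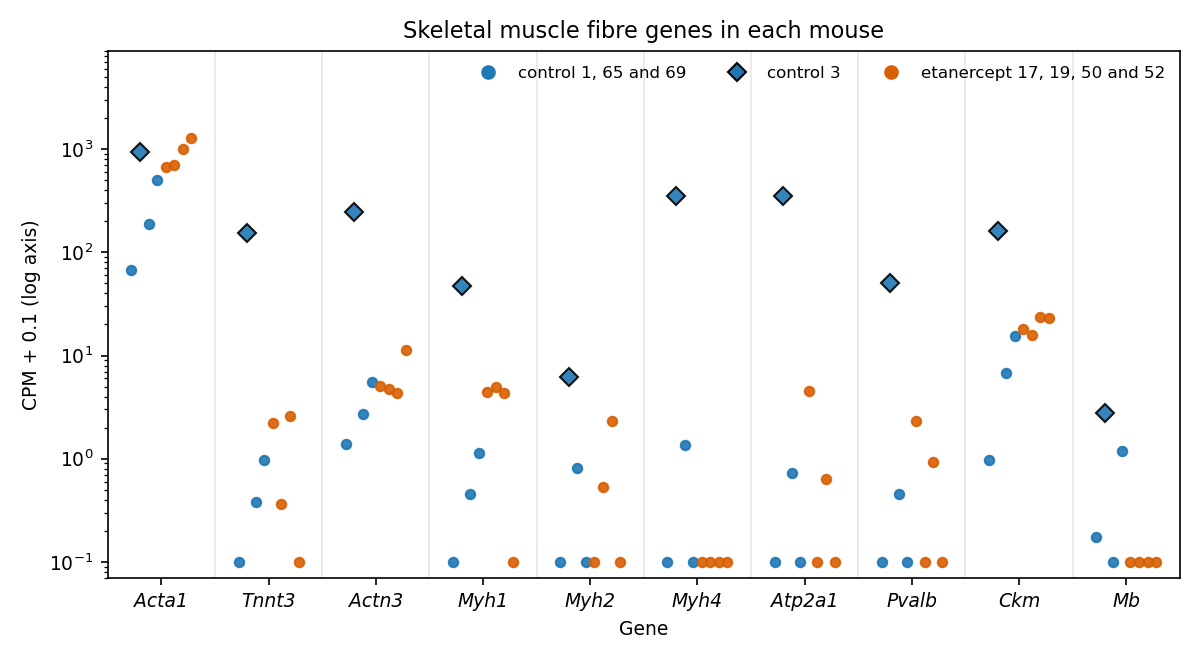
CPM + 0.1 of each of the 10 genes (log axis) in each of the 8 mice, with controls in blue, control 3 as a black-edged diamond and etanercept mice in orange. Points at the bottom are counts of 0. Control 3 is the top point of every gene but Acta1.

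Acta1, the actin of the skeletal muscle thin filament, differed from the other genes in being abundant in every library. Its levels were 66.7, 948, 190 and 502 CPM in control 1, 3, 65 and 69, and 666, 703, 1007 and 1288 CPM in etanercept 17, 19, 50 and 52. Control 3 lay within the range of the etanercept mice, and the other 3 controls lay below all of it. Acta1 made up 40.8% of the counts of the 10 genes in control 3 and 93.7% to 97.4% in the other mice. The remaining 9 genes summed to 2.24, 1374, 12.8 and 23.6 CPM in control 1, 3, 65 and 69, a ratio of highest to lowest of 613 (10.5 without control 3). In the etanercept mice the same sum was 26.0 to 37.8 CPM, a ratio of 1.45, so that every etanercept mouse stood above 3 controls and below control 3.

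**Figure D2:**
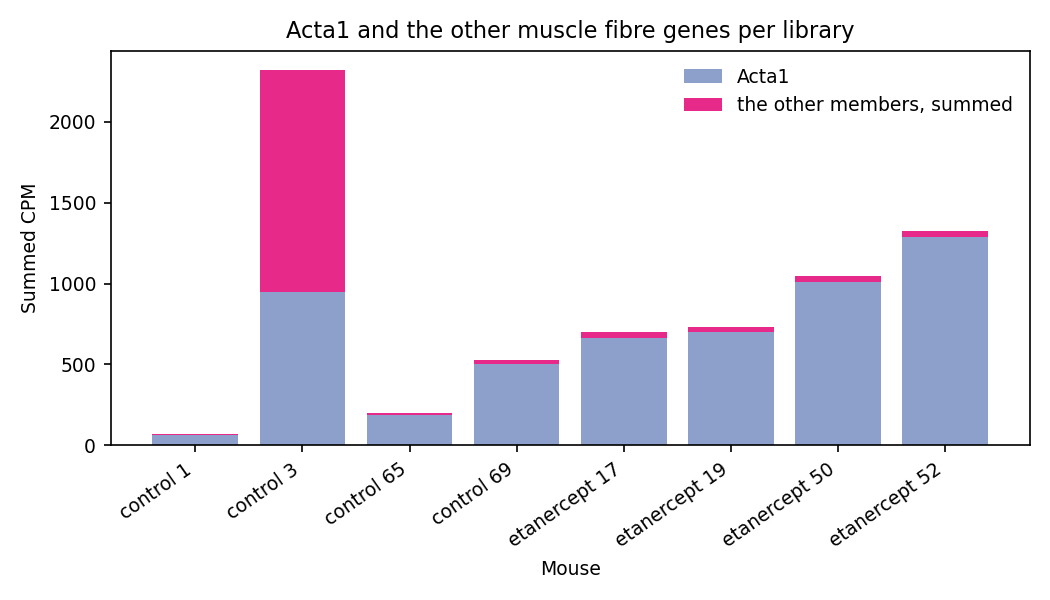
Summed CPM of Acta1 (blue-grey) and of the other 9 genes (pink), stacked for each of the 8 mice on a linear axis from 0. The other 9 genes sum to 1374 CPM in control 3 and to at most 37.8 CPM in any other mouse.

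Tnnt3, the fast troponin T that ties the calcium sensor to the thin filament, was counted at 0, 154, 0.28 and 0.87 CPM in control 1, 3, 65 and 69, and at 2.10, 0.27, 2.51 and 0 CPM in etanercept 17, 19, 50 and 52. Control 3 was 61.5 times the next mouse (95% counting interval 45.4 to 85.6), and the other 7 mice overlapped between the groups. Actn3, the alpha-actinin of the fast fibre Z disc, was detected in every mouse, at 1.30, 244, 2.61 and 5.38 CPM in the controls and 5.01, 4.65, 4.19 and 11.2 CPM in the etanercept mice. Control 3 was 21.8 times the next mouse, which was etanercept 52.

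The fast myosin heavy chains are the motor proteins that set a fibre's speed, with Myh4 marking type IIb, Myh1 type IIx and Myh2 type IIa fibres. The counts of Myh4 were 0 in control 1, 5287 in control 3, 18 in control 65 and 0 in control 69, and there was none in any of the 4 etanercept mice. Control 3, at 353 CPM, was 278 times control 65 (95% counting interval 176 to 470), the largest such ratio of the 10 genes. Myh1 stood at 0, 47.1, 0.35 and 1.04 CPM in the controls and at 4.37, 4.81, 4.19 and 0 CPM in the etanercept mice. Thus 3 of the 4 etanercept mice had 70 to 90 counts of Myh1 with no count of Myh4, and etanercept 52 had neither. Myh2 was low in all mice, at 0, 6.07, 0.70 and 0 CPM in the controls and 0, 0.43, 2.21 and 0 CPM in the etanercept mice. On the FPKM scale, Myh4 accounted for 86.7% of the summed level of Myh4, Myh1, Myh2 and the slow chain Myh7 in control 3, Myh1 for 11.0%, Myh2 for 1.258% and Myh7 for 1.08%. The adult fast chains share sequence: of the 50-base words in the transcripts of Myh1, 30.5% also occur in other genes, with 24.6% for Myh2 and 18.9% for Myh4, so low counts in this family are uncertain.

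Atp2a1, the fast fibre calcium pump of the sarcoplasmic reticulum, was counted 0 times in control 1, 5329 times in control 3, 9 times in control 65 and 0 times in control 69, and 76, 0, 9 and 0 times in the etanercept mice in the order 17, 19, 50 and 52. Control 3, at 355 CPM, was 80.3 times the next mouse, etanercept 17. Pvalb, the cytosolic calcium buffer parvalbumin of fast fibres, was counted 0, 753, 5 and 0 times in the controls and 38, 0, 14 and 0 times in the etanercept mice, in the same order. Both genes were therefore highest in control 3, next highest in etanercept 17, and at 0 in the same 4 mice. Atp2a1 overlaps exons of Rabep2 on the opposite strand over 21.9% of its exon length, and the strand setting of the counting is not given in the sources used here.

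Ckm, the muscle creatine kinase that regenerates ATP, was detected in every mouse, at 0.87, 162, 6.62 and 15.2 CPM in control 1, 3, 65 and 69 and at 18.1, 15.9, 23.4 and 23.2 CPM in etanercept 17, 19, 50 and 52. Control 3 was 6.91 times the next mouse (95% counting interval 6.21 to 7.71). Outside control 3 the levels of Ckm followed those of Acta1, with control 1, 65 and 69 in the lowest 3 places of both genes and the 4 etanercept mice above them. Per 100 FPKM of Acta1 there were 8.98 FPKM of Ckm in control 3 and 0.69 to 1.84 in the other 7 mice, and 13.6 FPKM of Actn3 in control 3 against 0.22 to 1.03. Mb, the oxygen-binding myoglobin typical of oxidative fibres, was close to the detection limit, with 2, 40, 0 and 19 counts in the controls and 0 counts in all 4 etanercept mice. Opposite-strand exons of Apol6 and Gm49540 cover 31.9% of the Mb exons, which makes its counts uncertain.

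Compared per length, the order of the genes in control 3 was Acta1 at 617 FPKM, Atp2a1 at 102, Tnnt3 at 97.6, Actn3 at 84.2, Myh4 at 58.6, Ckm at 55.4, Pvalb at 48.2, Myh1 at 7.42, Mb at 1.79 and Myh2 at 0.85 FPKM. Mb and Myh2 were thus the lowest of the 10 genes in this library. In the other 7 mice Acta1 was also the highest, and Ckm or Actn3 came next. The standard deviation within groups on the log2(CPM + 1) scale was 2.03 at the median of the 10 genes, compared with 0.44 at the median of the 15472 tested genes. The genes were chosen for this spread, and 5 of them are not among the tested genes, whose filter removes genes counted mostly in 1 mouse, so nothing is read from the difference. Without control 3 the median SD of the 10 genes stood at the 80.4th percentile of the tested genes.

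Other muscle fibre genes showed how far this pattern extended. Of 51 further genes of the fast sarcomere, of excitation-contraction coupling and of muscle metabolism, 49 had at least 10 counts, 41 of these were highest in control 3, and 30 were there at least 5 times the next mouse. These include Mylpf, a fast regulatory light chain (101 CPM in control 3, at most 2.68 CPM elsewhere), and Mybpc2, the fast myosin-binding protein (94.6 CPM, at most 2.47 CPM elsewhere). Ryr1, the calcium release channel, stood at 28.2 CPM against at most 1.74 CPM. The glycolytic Eno3 (94.4 CPM, at most 17.2 CPM elsewhere) and the glycogen phosphorylase Pygm (106 CPM, at most 29.9 CPM elsewhere) were detected in every mouse, as Ckm was. Among the 8 exceptions were Tpm2 and Jph2, which were highest in etanercept 52 and etanercept 17, at 1819 and 182 CPM. Others were Tmod4 and Jph1, both highest in etanercept 17, at 43.4 and 12.6 CPM, against 15.7 and 7.53 CPM in control 3. Tnnc2, the fast troponin C, was at 0 in all mice, with Ube2c exons on the opposite strand over 74.0% of its exon length.

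Of 12 slow fibre genes, 9 were highest in control 3, 5 of them at least 5 times the next mouse, such as the slow chain Myh7 at 6.27 CPM. The 3 most abundant of the list did not stand out there: Atp2a2 was highest in etanercept 52 (767 CPM) and Casq2 in etanercept 17 (29.2 CPM), and Tpm3 was at 88.5 CPM in control 3 and 88.2 CPM in etanercept 17. The sum of the list was 665 CPM in control 3 and 879 CPM in etanercept 52. None of 6 cardiac genes with 10 counts was highest in control 3, but the cardiac list summed to 18.3 CPM there, close to control 65, the highest mouse (18.9 CPM). Tnnt2, its most abundant gene, was at 15.8 CPM in control 3 and 17.9 CPM in control 65. Tnni3 was at 1.67 CPM in control 3 and 2.75 CPM in control 1. The cardiac actin Actc1 had no count in control 3. The embryonic and perinatal chains Myh3 and Myh8 also had no count in control 3, whereas the embryonic light chain Myl4 of the same list was highest there (4.87 CPM, next 3.87 CPM in control 65). Among 8 genes of muscle stem cells and myogenic factors, Myf6, the factor of mature fibres, had 32 counts in control 3 (2.13 CPM) and none elsewhere. Myog, Pax3 and Pax7 had 7, 5 and 2 counts, also in control 3 alone, and Myf5, Myod1, Mymk and Mymx were at 0 in all mice. Of 5 genes of the neuromuscular junction with 10 counts, 1 was highest in control 3 (Chrnb1, 6.20 CPM), while Colq, the most abundant, was highest in control 1 (36.6 CPM, against 11.7 CPM in control 3).

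**Figure D3:**
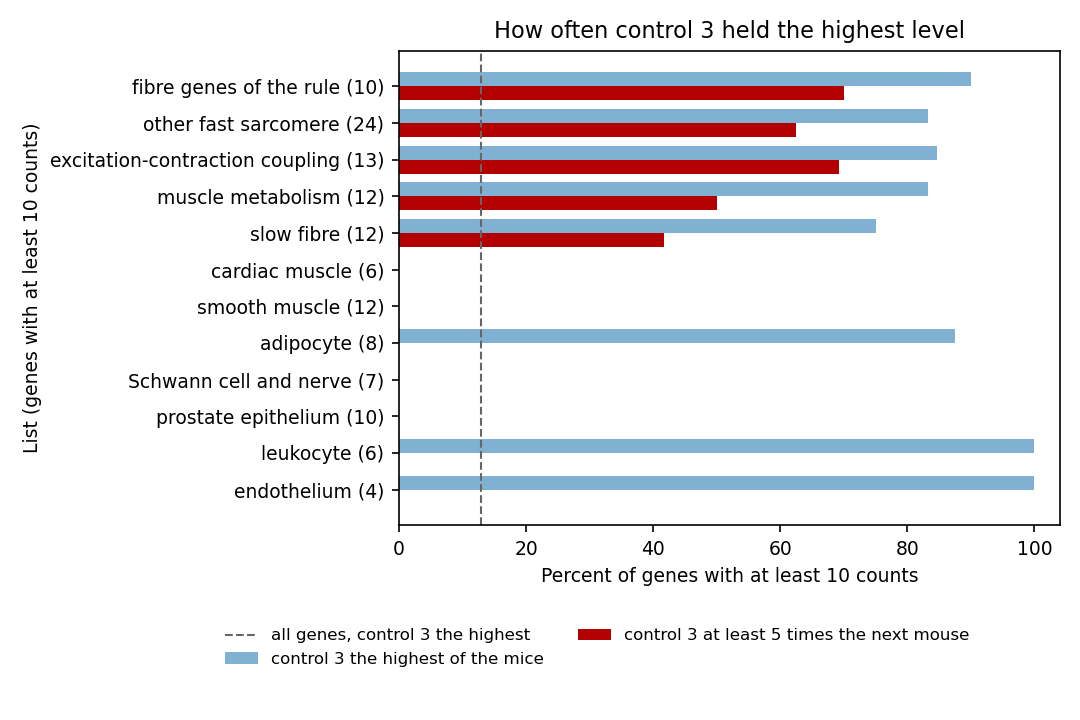
Percent of the genes of each list, among those with at least 10 counts (number in brackets), that were highest in control 3 (light blue) or there at least 5 times the next mouse (red), with all genes as a dashed line at 12.9%. Fold excesses of at least 5 occur in the skeletal muscle lists and in none of the other lists plotted.

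Markers of other cell types also differed between control 3 and the other mice, and their part in the result was not tested. The 8 adipocyte genes together summed to 821 CPM in control 3 and 423 CPM in control 1, the next mouse. Their sum was 92.3 CPM in the lowest control and 29.6 to 62.1 CPM in the etanercept mice. Control 3 was the highest mouse for 7 of the 8, among them Cfd, Fabp4 and Adipoq. It was the highest for 6 of the 6 leukocyte genes reported, among them Cd79a, Cd68 and Adgre1 (summed 297 CPM, lowest control 78.6 CPM, etanercept mice 67.3 to 123 CPM), and for 4 of 4 endothelial genes, among them Pecam1 and Cdh5 (summed 105 CPM, lowest control 43.4 CPM, etanercept mice 33.4 to 53.2 CPM). It was the highest for 0 of 12 smooth muscle genes, 0 of 7 Schwann cell and nerve genes and 0 of 10 prostate epithelial genes, and the 7 seminal vesicle genes summed to 0 CPM in control 3, to at most 3567 CPM in the controls and to 4.12 to 87861 CPM in the etanercept mice, with the highest sum in etanercept 17. The summed epithelial level of control 3, 5920 CPM, lay within the range of the controls, 4687 to 12723 CPM. Over all genes, 125 were at least 5 times higher in control 3 than in the next mouse. Of these, 37 were among the 10 genes or the 51 further muscle genes and 17 were immunoglobulin variable segments. By the same count etanercept 17 had 211 genes at least 5 times the next mouse, and control 1 and control 69 had 83 each.

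Smooth muscle, the main contractile tissue of the prostate, was compared with Acta1. The 12 smooth muscle genes summed to 4644, 9747, 9430 and 8347 CPM in control 1, 3, 65 and 69 and to 15290, 9185, 15250 and 18365 CPM in etanercept 17, 19, 50 and 52. The lowest sum, in control 1, fell in the mouse with the lowest Acta1, and the highest, in etanercept 52, in the mouse with the highest. The ratio of Acta1 to the smooth muscle actin Acta2 was not constant. Per 100 FPKM of Acta2 there were 52.8 FPKM of Acta1 in control 3, the largest ratio, and 7.32 to 48.1 in the other 7 mice. Of the 50-base words of Acta1, 2.02% occur in other genes, among them the cytoplasmic actins Actb and Actg1.

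Between etanercept and control mice, the edgeR quasi-likelihood test called 0 of 15472 genes at an adjusted p of at most 0.05 (0.0% called, 1024 genes at an unadjusted p under 0.05, smallest adjusted p 0.739), and DESeq2 called 21. Of the 10 fibre genes, 5 passed the filter, which asks for about 10 counts in at least 4 mice, and Myh4 and Atp2a1 did not pass it because their counts sat mostly in 1 mouse. No fibre gene was called by either tool. Acta1 had a log2 fold change of 1.10 ± 0.66 (SE, etanercept minus control, adjusted p = 0.821), with 427 ± 393 CPM in controls and 916 ± 291 CPM in etanercept mice (SD, n = 4 each). Tnnt3 had a log2 fold change of -4.98 ± 2.20 and Actn3 of -3.34 ± 1.49 (adjusted p = 0.743 for both), and these were the 2 genes at an unadjusted p under 0.05. Myh1 stood at -1.85 ± 1.76 and Ckm at -1.19 ± 1.13 (adjusted p = 0.907 for both). The signs of the last 4 genes rested on control 3. Without that mouse the log2 fold changes were 1.65 ± 1.85 for Tnnt3, 1.01 ± 0.63 for Actn3, 2.83 ± 1.72 for Myh1 and 1.40 ± 0.74 for Ckm, and that of Acta1 was 1.84 ± 0.62, with adjusted p-values of 0.834 to 0.986 and no call. In that fit all 5 genes were positive, as were 49.7% of the 15927 tested genes, and with all mice 4 of 5 were negative, as were 51.0% of the tested genes. When every gene with at least 1 count was fitted, all 10 fibre genes had values, 9 negative and Acta1 positive, with adjusted p-values of 0.558 to 0.880.

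**Figure D4:**
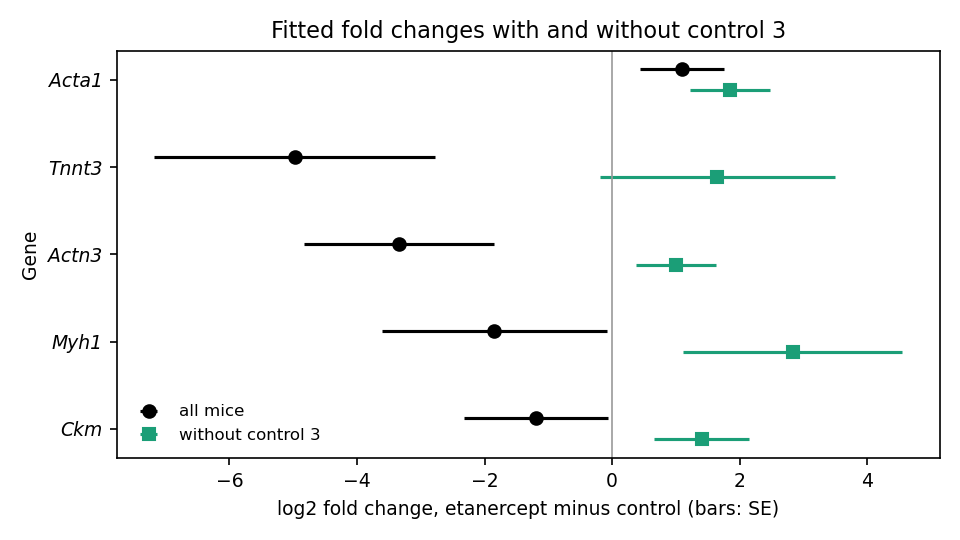
Log2 fold change, etanercept minus control, with its SE for the 5 fibre genes that passed the count filter, fitted with all 8 mice (black circles) and without control 3 (green squares). Tnnt3, Actn3, Myh1 and Ckm lie left of 0 with all mice and right of 0 without control 3, and no value passed the adjusted threshold.

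Of the 51 further muscle genes, 23 were tested and 0 were called, with 17 negative log2 fold changes and a median of -1.18, compared with 51.0% negative among all tested genes. Without control 3, 13 of 23 were positive and the median was 0.40. DESeq2 gave 7 of the 10 fibre genes no p-value because a single library had too large a Cook's distance (Tnnt3, Actn3, Myh1, Myh4, Atp2a1, Pvalb and Ckm), whereas it set aside 1.69% of all genes with counts. It did the same for 24 of 50 further muscle genes. Acta1 had an adjusted p of 0.836 and Mb of 0.333 by DESeq2.

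The genes whose pattern over the 8 mice was most like the mean standardized log2(CPM + 1) of the 10 fibre genes were Rrm1, Ly86, Cd300a, Hpse, Ptpn6, Mybpc1, Il7r, Mfge8, Ighv14-3 and Nap1l1, with Pearson's r of 0.941 to 0.979. Genes counted almost only in control 3, such as Myh4, had not passed the filter and were not ranked. Without control 3 and control 1, the mice farthest from the median, r was -0.342 to 0.8001, and it was highest for Rrm1, Nap1l1 (0.739) and Ptpn6 (0.716) and below 0 for Cd300a and Ighv14-3. Mybpc1, the slow fibre myosin-binding protein, was at 30.5 CPM in control 3 and at most 4.28 CPM in any other mouse, and it was the only one of these genes on a muscle list.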

How the data were processed

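Poly(A) RNA of 8 frozen prostates (4 control, 4 etanercept) was sequenced in paired reads of 150 nt. The deposited table holds raw read counts per gene, made by the authors. The submitters' processing notes name fastp, STAR 2.6.1d, featureCounts 1.5.0-p3, DESeq2 1.26.0 and mm10. The annotation release and the strand setting are not given in the sources used here. Identifiers were matched to GENCODE M21 (54495 of 54532), which also gave exon lengths, overlaps and shared 50-base words. Totals were 13760669 to 25178942 counts per library, and intervals cover counting error only.

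Counts were fitted with edgeR 4.0.16 in R 4.3.3 (quasi-likelihood test, TMM factors, filterByExpr with a minimum count of 10, Benjamini-Hochberg over all 15472 genes, adjusted p of at most 0.05). The script was tested on simulated data. DESeq2 1.42.0, other scalings, other filters and fits without each mouse were alternatives. CPM used TMM-scaled totals, and the within-group SD a pseudocount of 1.

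The fibre genes, lists and tests were chosen with earlier results of these data known. Named by rule were the 10 genes, the 3 genes of each list with the highest mean FPKM or those at 0 in all mice, the 3 of the other muscle lists with the smallest p, and the 10 genes most like the fibre genes. Not all of the 3 genes of each list are printed. Myh7, Pax7, the threshold of 5 times the next mouse and the ratios to Acta1 and Acta2 were chosen after values were seen. A leukocyte gene of the marker lists is not reported here.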

Additional observations from a re-analysis of the deposited data

Results flagged for a closer look

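Each of the 10 genes and 2 sums was checked in both groups for a mouse far from the other 3 of its group, by the gap to the nearest mouse as a share of the group's range, and 12 of 24 checks found one. The limit is set to give about 1 in 20 by chance for normally distributed values of genes not chosen for their spread. That rate was not measured for CPM with many values of 0. These genes were chosen for their spread and share the same libraries, so the count is a description. Myh4 and Mb were at 0 in all 4 etanercept mice, where no such mouse could be found. In 9 of the 12 the mouse was control 3. Its levels were 154 CPM for Tnnt3, 244 CPM for Actn3, 47.1 CPM for Myh1, 6.07 CPM for Myh2, 353 CPM for Myh4, 355 CPM for Atp2a1, 50.2 CPM for Pvalb, 162 CPM for Ckm and 1374 CPM for the sum of the genes other than Acta1, whereas the next control stood at 0.87, 5.38, 1.04, 0.70, 1.27, 0.63, 0.35, 15.2 and 23.6 CPM in the same order. The 3 in the etanercept group fell in etanercept 52 and etanercept 17. Actn3 was high in etanercept 52 (11.2 CPM, next 5.01 CPM) and Myh1 was at 0 CPM in the same mouse (next 4.19 CPM). Atp2a1 was high in etanercept 17 (4.43 CPM, next 0.54 CPM). Acta1, Mb and the sum of all 10 genes had no such mouse in either group.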

How the results depend on the processing

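Without control 3, 4 of the 5 single-gene log2 fold changes reversed, as did the median over the tested fibre genes, and no other alternative run on them did so. When 1 mouse was left out in turn, Tnnt3 ran from -5.60 to 1.65, Actn3 from -3.81 to 1.01, Myh1 from -2.30 to 2.83 and Ckm from -1.63 to 1.40, with the highest value of each without control 3. Leaving out 1 mouse moved the median log2 fold change of the tested fibre genes (main value -1.85) between -3.04 and 1.65. The genes passing the filter changed between these fits, with 5 in the main fit and without control 3 (1.65). Without control 1 (-3.04) there were 8, so the ends of the range are not medians of the same genes. The median was -3.70 when every gene with at least 1 count was fitted and -3.71 with DESeq2, over all 10 genes. Leaving out 1 mouse also moved the ratio of highest to lowest control mouse (33.7) between 7.62 and 33.7. That of the etanercept mice (1.88) moved between 1.49 and 1.88. The percentile of the median within-group SD (99.5) moved between 80.4, without control 3, and 99.7. DESeq2 called 21 genes in place of 0, none of them a muscle gene. FPKM in place of CPM gave a control ratio of 24.3, library size alone an etanercept ratio of 1.97, and a pseudocount of 5 a percentile of 99.2. The cause of these differences was not tested. No alternative called a fibre gene or a further muscle gene, and Acta1 stayed positive, between 0.72 and 1.84. No paired analysis was possible because the groups share no animal number. At 3 counts the floor was 0.108 to 0.211 CPM, so values of 0 for Myh4, Myh2, Mb, Atp2a1 and Pvalb limit only levels above it.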
